A study of Drosophila melanogaster with 6 samples.

Results

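The genes described here are 10 genes of chromosome 4 that act in signalling and guidance between cells: *Crk*, *Ephrin*, *Eph*, *PlexA*, *PlexB*, *mav*, *Actbeta*, *myo*, *CaMKI* and *mGluR*. They were taken by name, and a gene counted as measured where the table of the array gave it a probe set that names no other gene. This held for 8 of the 10, with 11 probe sets, out of 11982 genes measured in all. *PlexA* and *CaMKI* were not matched to a probe set and have no value here. One set of testes came from *Pof* mutant males (*y1 w67c23*; *Pof D119*/*Pof D119*), which are homozygous for a mutant allele of the gene for the POF protein, and the others from wild type males (*y1 w67c23*), so that both carry the same markers of the X chromosome. Each genotype had 3 biological replicates of 60 testes from males 0 to 24 h old, kept at the same temperature, with 1 Affymetrix *Drosophila* array for each replicate. The males carry the allele in all their cells, and whole dissected testes mix germline with somatic cells, so fewer cells of a type and less RNA per cell cannot be told apart.

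POF is a protein that coats the small chromosome 4 and stimulates its genes, so the comparison asks which of these genes differ in level when *Pof* is mutant. Ephrins and Eph receptors are membrane proteins that signal where cells touch, plexins are the receptors of semaphorins, and both are known for steering growing axons. Ligands of the TGF-beta family are secreted and act through serine-threonine kinase receptors and Smad proteins, and in the testis the ligands Dpp and Gbb from somatic cells maintain the germline stem cells. Adaptors such as Crk carry signals from receptors at the membrane to regulators of the cytoskeleton.

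Of the 8 measured genes, *Crk* fell in *Pof* mutant testes, to 65.5% of its wild type level, and the other 7 did not pass the test. The call of *Crk* was lost without any 1 of the 6 arrays, where the limma adjusted p was 0.060 to 0.224 and 0 of the 8 genes passed. The level of *Crk*, *Ephrin*, *Eph* and *mav* was above 6 on the log2 scale on all 6 arrays. *Actbeta*, *myo* and *mGluR* were below 6 on all 6 arrays, a range marked here as near background, where a fall cannot be read well. So was *PlexB* as the average of its 4 probe sets, although the brightest of them was above 6 on 4 arrays. The gene nearest above this level was *Ephrin*, with a wild type mean of 7.00, and the nearest below was *PlexB*, with 5.34. By count, 1 of 8 genes was lower and 0 were higher, with limma and Benjamini-Hochberg adjustment over all genes. Over all 11982 genes 3.2% passed, 1.57% lower and 1.64% higher, and with so few genes the count is read as *Crk* alone. Above a wild type mean of 6 it was 1 of 4, against 2.36% lower and 1.84% higher among 7510 genes. At an unadjusted p under 0.05 the count was also 1 of 8, against 15.1% of all genes. The mutant mean was the lower one for 6 of the 8, against 43.8% of all genes.

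**Figure D1:**
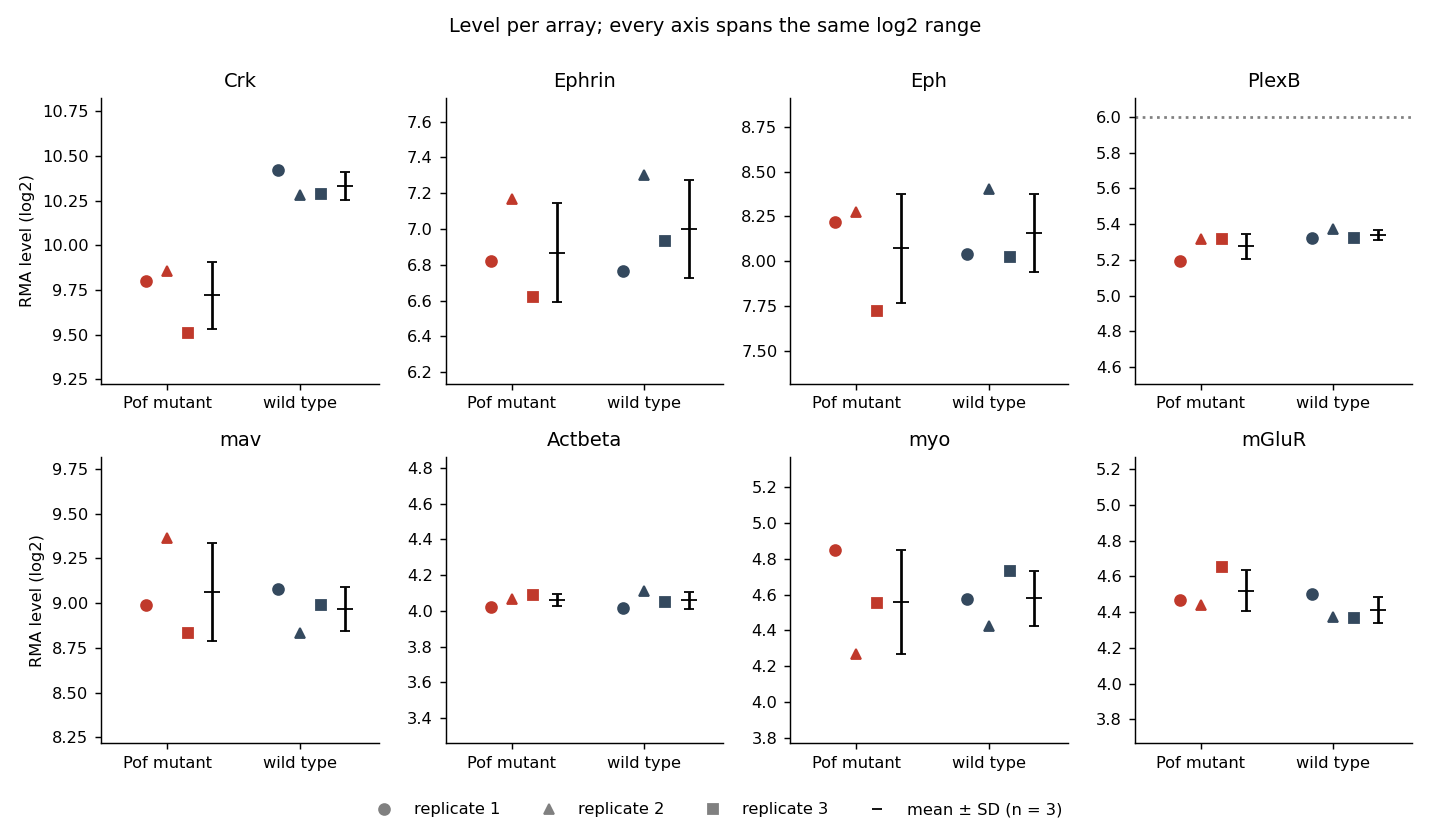
RMA level (log2, y axis) of each measured gene on the 3 *Pof* mutant arrays (red) and the 3 wild type arrays (dark), with symbols for the replicate number and bars for the mean ± SD. Every mutant array of *Crk* lies below every wild type array, and the genotypes overlap in the other panels except *PlexB*, whose gap is 0.001; the dotted line marks the level of 6.

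The deposited levels are RMA values, which equalise the distributions of the arrays, so alike medians do not show how alike the raw signals were. Array medians lay between 5.78 and 5.88 as deposited, and a constant of -0.019, 0.027 and 0.060 was added to mutant replicates 1, 2 and 3 so that each had the mean of the wild type arrays. All levels below include it. *Pof* itself had levels of 10.36, 10.52 and 10.36 in the mutant replicates, against 12.98, 13.06 and 12.89 in the wild type replicates, or 16.9% of wild type (limma adjusted p = 7.5e-05). In a principal component analysis, component 1 (53.2% of the variance) set replicate 2 of each genotype apart, and the genotypes parted on component 2 (31.6%). Of 39 measured markers of cell types, 5 were lower (12.8%) and 1 was higher (2.56%) in the mutant, against 1.57% and 1.64% of all genes. The markers that passed were *aub*, *dj*, *Mst84Db* and *Prosbeta5R1* of the germline and *Lsp2* and *Fbp1* of the fat body. The label of the tissue was borne out by *Mst98Ca*, a gene of late male germ cells, with means of 13.90 in mutant and 13.89 in wild type testes. Markers of the accessory gland were also detected, such as *Acp98AB* with 14.33 in mutant and 14.22 in wild type testes, and 0 of the 6 passed. Their summed linear signal was 68085 to 81354.5 in the mutant replicates, against 62745 to 74550 in the wild type replicates. On every array this was above the sum of the 8 markers of spermatocytes and spermatids.

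*Crk* (Entrez Gene 43775, CG1587) encodes an adaptor with SH2 and SH3 domains, which joins phosphorylated receptors to activators of the GTPase Rac and acts in cell fusion and in the engulfment of dying cells. It had levels of 9.80, 9.86 and 9.51 in the *Pof* mutant replicates, against 10.42, 10.28 and 10.29 in the wild type replicates. The genotypes did not overlap, and the highest mutant array lay 0.43 below the lowest wild type array, a gap wider than the range within either genotype. The mean was 9.72 ± 0.19 in mutant testes and 10.33 ± 0.078 in wild type testes (SD, n = 3 each). The log2 change was -0.61 (standard error 0.12, 95% confidence interval -0.89 to -0.33, limma adjusted p = 0.045), so that the interval ran from 54.1% to 79.3% of the wild type level. Arrays with the same replicate number differed by -0.62, -0.43 and -0.78, all in the same direction. *PlexB* was the other gene lower in every pair, so 2 of 8 were lower in all 3 pairs, against 21.3% of all genes, and 0 of 8 were higher in all 3, against 22.9%.

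The call of *Crk* lay close to the threshold. It held in 8 of the 16 other settings tried, and its change stayed between -0.69 and -0.50 in all of them. With the replicate number as a block the limma adjusted p was 0.030, and again 1 of the 8 genes passed, where 5.98% of all genes did and 3.17% were lower. Without any 1 of the 6 arrays the adjusted p was between 0.060 and 0.224, the highest of them without wild type replicate 1, and without the constant it was 0.060. Some markers of other cells moved with genotype beside it, 5 of 39 lower and 1 higher, against 1.57% and 1.64% of all genes. Of 4 measured markers of fat body and haemolymph 2 were lower, *Lsp2* (-1.60) and *Fbp1* (-1.64), and the summed linear signal of the list was 1981 to 2226 in the mutant replicates, against 2140 to 2707 in the wild type replicates. Most of that sum came from *apolpp*, itself a gene of chromosome 4, which had a value of 0.02. Of 8 markers of spermatocytes and spermatids 2 were lower and 1 higher. Their sums were 30396 to 31584 in the mutant replicates, against 34188.5 to 35786 in the wild type replicates. Most of this gap came from the bright gene *Mst84Db*, with means of 13.34 in mutant and 13.85 in wild type testes. By gene, 4 of the 8 changes were below 0 and 4 above, with a median of -0.05. Of 3 markers of the early germline *aub* was lower (-0.61), with sums of 738 to 852 in the mutant and 756 to 962 in wild type. Of 5 haemocyte markers, cells known for engulfment, 0 passed, with sums of 226 to 271 in mutant and 224 to 245 in wild type. All 5 had a wild type mean below 6, and the mean of *Hml*, a defining marker, was below 6 in both genotypes. Muscle sheath markers had a median change of -0.23, with 3 of 4 below 0. Somatic cyst and hub markers had one of 0.06 over 6 genes, 5 of them with a wild type mean below 6, and 0 passed in either list. Near background a shift of the haemocyte, cyst and hub markers cannot be read well. The part of these cells in the level of *Crk* was not tested.

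**Figure D2:**
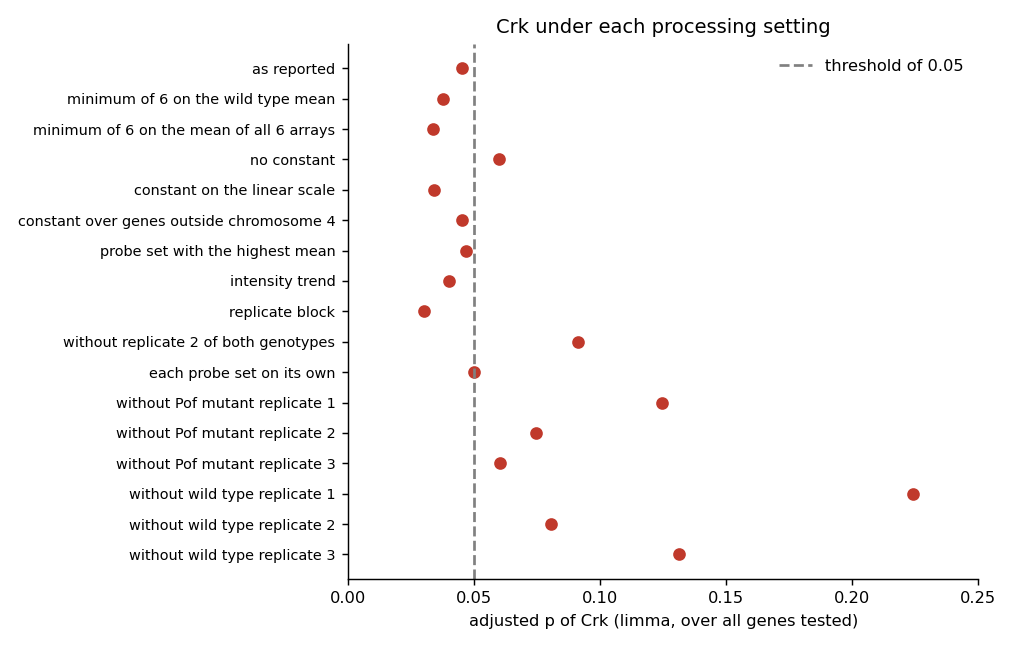
Adjusted p of *Crk* (limma, x axis) as reported and under each alternative setting (rows), with the threshold of 0.05 as a dashed line. The call is kept in 8 alternatives and lost without any 1 array, without the constant and without replicate 2 of both genotypes.

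*Ephrin* (Entrez Gene 43799, CG1862) encodes the membrane-bound ligand and *Eph* (Entrez Gene 43803, CG1511) its receptor tyrosine kinase. *Ephrin* had levels of 6.82, 7.17 and 6.62 in the *Pof* mutant replicates, against 6.77, 7.30 and 6.94 in the wild type replicates. *Eph* had levels of 8.22, 8.28 and 7.72 in the mutant replicates, against 8.04, 8.41 and 8.02 in the wild type replicates. In both genes and both genotypes replicate 2 was the highest array, mutant replicate 3 was the lowest of all 6, and the genotypes overlapped. The change of *Ephrin* was -0.13 (standard error 0.19, limma adjusted p = 0.810), with an interval from 66.7% to 125% of wild type. That of *Eph* was -0.09 (standard error 0.18, limma adjusted p = 0.879), with an interval from 69.7% to 127%. The SD within a genotype, 0.22 to 0.31, was larger than either change. Without wild type replicate 2, the change was 0.024 for *Ephrin* and 0.045 for *Eph*, and neither passed.

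*PlexB* (Entrez Gene 43766, CG17245) encodes the plexin that binds the secreted semaphorins Sema2a and Sema2b, while *PlexA* (Entrez Gene 43832, CG11081), not measured here, encodes the plexin of the membrane-bound Sema1a. The array held 4 probe sets for *PlexB*, and they did not move together. The brightest read 6.14, 5.96 and 5.76 in the *Pof* mutant replicates, against 6.14, 6.31 and 6.17 in the wild type replicates, which gave a difference of -0.25 (95% confidence interval -0.54 to 0.031, limma adjusted p = 0.415 with each probe set tested on its own). It was the only one of the 4 with a wild type mean above 6. The second was at 5.18, 5.55 and 5.65 in the mutant replicates, against 5.35, 5.38 and 5.31 in the wild type replicates, a change of 0.11. The third had 4.99, 4.95 and 4.79 on the mutant arrays, below the 5.01, 5.05 and 5.12 of the wild type arrays, by a gap of 0.025. A lack of overlap in this direction was found for 9.89% of all probe sets. The dimmest had a change of 0.03. Both directions thus stood among the 4 probe sets, and 0 of them passed the test. Averaged as in the main comparison, *PlexB* had levels of 5.20, 5.31 and 5.32 in mutant testes and 5.32, 5.37 and 5.32 in wild type testes, and its change of -0.06 (standard error 0.079) had a limma adjusted p of 0.792. Its mutant arrays lay below its wild type arrays by 0.001. Groups that do not overlap in this direction were found for 2 of the 8 genes, *Crk* and *PlexB*, and for 10.2% of all genes. In the other direction it was 0 of 8, against 10.8%.

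**Figure D3:**
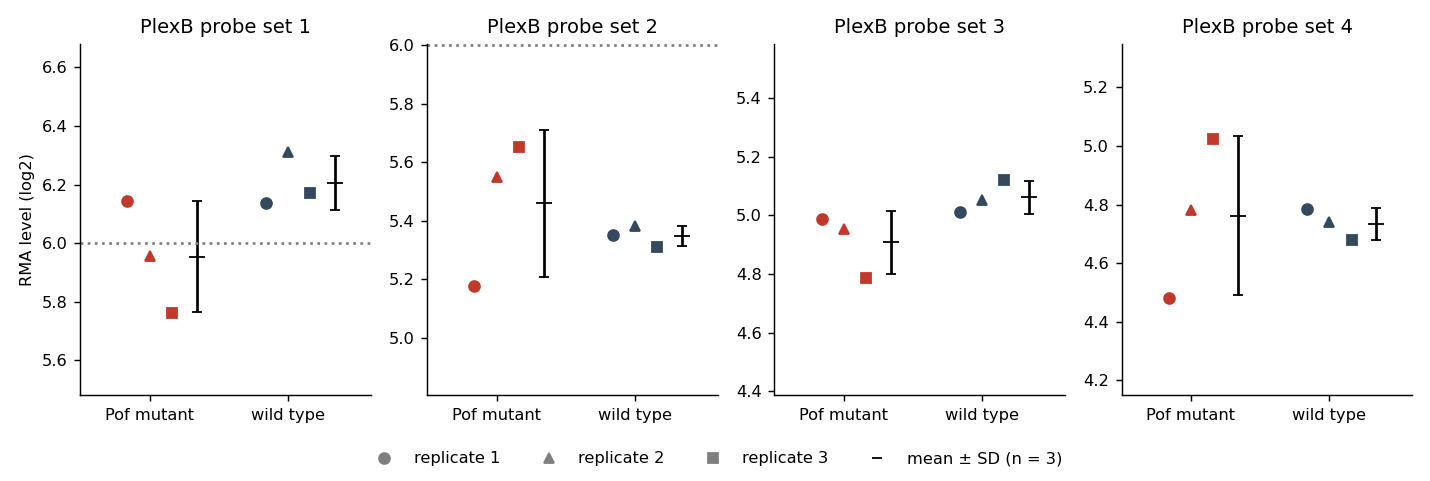
RMA level (log2, y axis) of the 4 *PlexB* probe sets, from the brightest to the dimmest in wild type, on the *Pof* mutant arrays (red) and the wild type arrays (dark), with symbols for the replicate number and bars for the mean ± SD. Probe sets 1 and 3 are lower on average in the mutant and probe sets 2 and 4 higher; the dotted line marks the level of 6.

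Of the TGF-beta ligands of chromosome 4, *mav* was well above background and *Actbeta* and *myo* were near it. *mav* (Entrez Gene 43804, CG1901) encodes Maverick, which glia release at the neuromuscular junction. It had levels of 8.99, 9.37 and 8.83 in the *Pof* mutant replicates, against 9.08, 8.84 and 8.99 in the wild type replicates. Mutant replicate 2 was the highest array, and the other 2 mutant arrays lay within or just below the wild type range. The change was 0.09 (standard error 0.15, limma adjusted p = 0.837), with an interval from 83.0% to 137% of wild type, and it was -0.06 without mutant replicate 2. *Actbeta* (Entrez Gene 43826, CG11062), an activin that signals through the receptor Baboon and the Smad protein Smox, had levels of 4.02, 4.07 and 4.09 in the mutant replicates, against 4.02, 4.11 and 4.05 in the wild type replicates. The genotypes overlapped. *myo* (Entrez Gene 43811, CG1838), which encodes Myoglianin, the relative of the vertebrate myostatin, had levels of 4.85, 4.27 and 4.55 in the mutant replicates, against 4.58, 4.43 and 4.73 in the wild type replicates. Its changes by replicate pair, 0.27, -0.16 and -0.18, differed in sign. The fitted changes were -0.0007 for *Actbeta* (limma adjusted p = 0.997) and -0.02 for *myo* (limma adjusted p = 0.972).

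*mGluR* (Entrez Gene 43838, CG11144) encodes the metabotropic glutamate receptor of the fly, a G protein coupled receptor that tunes transmission at glutamatergic synapses. It was near background, with levels of 4.47, 4.44 and 4.65 in the *Pof* mutant replicates, against 4.50, 4.37 and 4.36 in the wild type replicates. The mutant range overlapped the highest wild type array, and the change of 0.11 (standard error 0.094, limma adjusted p = 0.685) did not pass. Of 3 measured neuronal markers 0 passed. *elav*, the defining marker of neurons, had means of 4.71 in mutant and 4.64 in wild type testes, and *brp*, of synaptic active zones, 5.50 and 5.48, while *nSyb*, of synaptic vesicles, was above background with 7.14 and 7.13. *CaMKI* (Entrez Gene 43792, CG1495), a calcium- and calmodulin-dependent kinase, has no value here.

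The fall of *Crk* was set against the genes above background within each array, a comparison chosen after the values were seen. The level of *Crk* minus that of *mav* was 0.81, 0.49 and 0.67 in the mutant replicates, against 1.34, 1.45 and 1.30 in the wild type replicates. The difference between genotypes in this measure was -0.70 (standard error 0.10), and it was -0.52 (standard error 0.17) for *Crk* minus *Eph* and -0.48 (standard error 0.21) for *Crk* minus *Ephrin*. In all 3 comparisons the mutant replicates lay below the wild type replicates. Since the genes were chosen by what they did, these values are given as a description, with no test.

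**Figure D4:**
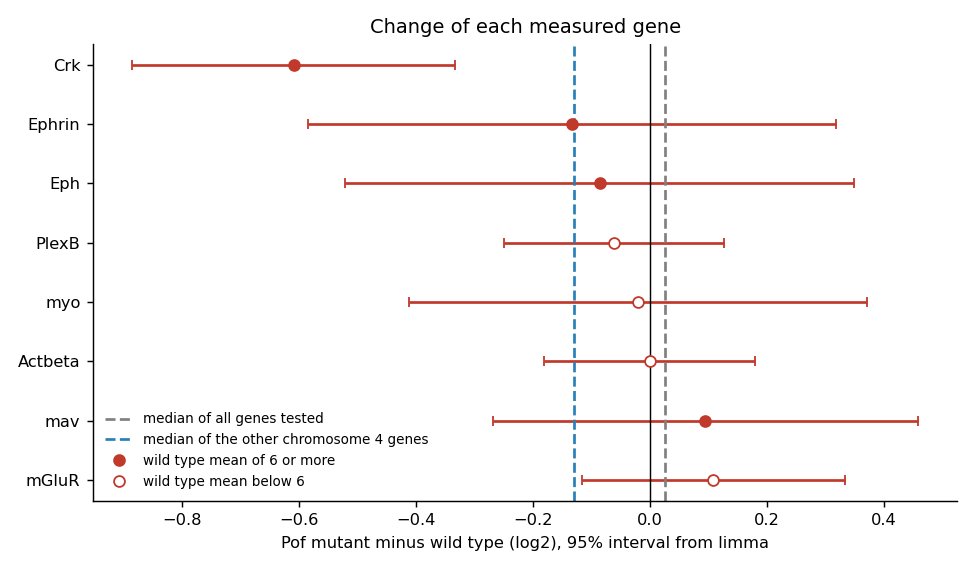
Log2 change between *Pof* mutant and wild type testes (x axis) of each measured gene with its 95% confidence interval from limma; filled points have a wild type mean of 6 or more. The interval of *Crk* alone lies wholly below 0, and the dashed lines give the medians of the other chromosome 4 genes (-0.13) and of all genes (0.025).

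The signalling and guidance genes were then read beside the rest of their chromosome. Their median change was -0.04 over 8 genes, against -0.13 over the 57 other chromosome 4 genes measured and 0.025 over all genes. Above a wild type mean of 6, it was -0.11 over 4 genes, against -0.29 over 27 other chromosome 4 genes and -0.02 over 7510 genes of all chromosomes. Of these 4 genes 1 had mutant arrays that lay wholly below wild type, against 15 of the 27 (55.6%) and 13.8% of the 7510. Among genes near background the medians were -0.01 over 4 and 0.0022 over 30, against 0.064 over 4472 genes of all chromosomes. By array, the median of the 8 genes relative to their wild type mean was -0.0082, 0.017 and -0.080 in the mutant replicates, against -0.0090, -0.0027 and -0.030 in the wild type replicates, and the genotypes overlapped. For the other chromosome 4 genes it was -0.10, -0.082 and -0.13 in the mutant replicates, against -0.016, 0.0063 and 0.0037 in the wild type replicates, with no overlap. The difference between the lists was not tested. Of the 57 genes 2 were lower, *CG32006* (-3.59) and the zinc transporter gene *Zip102B* (-1.57), and 0 were higher, where 1.57% and 1.64% of all genes were. *Zip102B* was near background on every mutant array (4.68 to 4.73) and at 5.99 to 6.51 on the wild type arrays, so the size of its change cannot be read well. When the fit was blocked on the replicate number, 6 of the 57 were called, where 5.98% of all genes were. Without wild type replicate 2 it was 5 of the 57, where 384 of all 11982 genes were called.

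**Figure D5:**
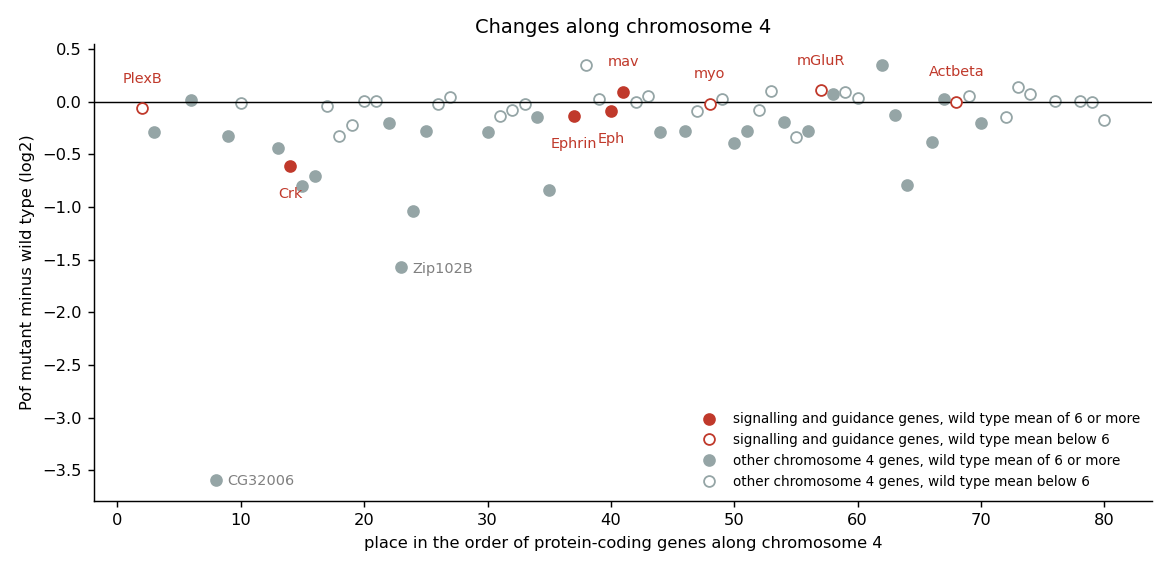
Log2 change between *Pof* mutant and wild type testes (y axis) of each measured gene of chromosome 4 in the order of its protein-coding genes (x axis, place in the order), with the signalling and guidance genes in red and open points for genes with a wild type mean below 6. *Crk* lies among genes with negative changes, and *Ephrin*, *Eph* and *mav* lie close to one another near 0.

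In the order of the 80 protein-coding genes of chromosome 4, *PlexB* is at place 2, *Crk* at 14, *CaMKI* at 29, *Ephrin* at 37, *Eph* at 40, *mav* at 41, *myo* at 48, *mGluR* at 57, *PlexA* at 61 and *Actbeta* at 68. *Crk* lies between *CG31998*, with a change of -0.44 (limma adjusted p = 0.340), and *CG31999*, with one of -0.80 (limma adjusted p = 0.310), so that both neighbours had a negative value and neither passed. *Eph* and *mav* are direct neighbours, with values of -0.09 and 0.09. The measured neighbour of *Ephrin*, *CG1909*, was near background, with a value of 0.34 (limma adjusted p = 0.065). The neighbours of *myo*, *CG11360* and the eye selector gene *ey*, were near background in both genotypes, as *myo* was. *mGluR* lies between *eIF4G1* and *4E-T*, genes of translation with values of -0.28 (limma adjusted p = 0.415) and 0.07 (limma adjusted p = 0.844). *Actbeta* follows the apolipoprotein gene *apolpp*. The measured neighbour of *PlexB*, the Hedgehog pathway factor gene *ci*, had a value of -0.29 (limma adjusted p = 0.232).

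Likeness was measured as the Pearson correlation over the 6 arrays against 26 other genes of chromosome 4 with a mean of at least 6, as a description, since the arrays share the replicate and the genotype. *Crk* was most like *CG32006* (0.97) and *ci* (0.96), of which the first was lower in the mutant and the second did not pass. *Ephrin* was most like *CG11076* (0.89) and *Eph* (0.87), and *Eph* was most like *CG11076* (0.91) and *Ephrin* (0.87). For *mav* no gene reached 0.5, the nearest being *CG11076* and *Ank* (0.47 each).

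Genes that act with these ligands, receptors and adaptors did not pass the test. Of 83 such genes 64 were measured, and 41 of these had a wild type mean below 6, where 1.54% of all genes passed. With limma 0 were higher and 0 lower after adjustment, against 1.64% and 1.57% of all genes. The count after adjustment was also 0 in each of the 15 alternatives tried for it. At an unadjusted p under 0.05 in the main fit it was 1 of 64, against 15.1% of all genes. The genotypes did not overlap for 2 of the 64 with the mutant lower (*sax* and *CanA1*) and for 2 with the mutant higher (*unc-5* and *GluRIIB*), against 10.2% and 10.8% of all genes. The TGF-beta pathway had 19 measured genes besides the 3 ligands of chromosome 4. Its ligands *gbb* and *dpp*, which maintain the germline stem cells, had wild type means of 8.76 and 6.66 and values of 0.19 (limma adjusted p = 0.508) and 0.03 (limma adjusted p = 0.947). Its receptors *sax* and *tkv*, which bind Dpp and Gbb, had values of -0.26 (limma adjusted p = 0.374) and 0.0075 (limma adjusted p = 0.985). Of the Activin branch, the receptor gene *babo*, the Smad gene *Smox* and the ligand gene *daw* had means below 6 in both genotypes. The extracellular modulator genes *tok* and *cv* had values of 0.20 and -0.02.

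Of 6 measured semaphorins and plexin partners, 5 were near background, and *Mical*, an enzyme that disassembles actin downstream of PlexA, had means of 7.11 in mutant and 7.10 in wild type testes, while *otk2* had 5.28 and 5.16. The Eph partner *Exn*, an exchange factor, had means of 5.84 and 5.76 in mutant and wild type. Among 8 other guidance genes, the Netrin receptor gene *unc-5* had a value of 0.18 (limma adjusted p = 0.374) and *Ptp10D*, a receptor tyrosine phosphatase gene, was the only one above 6, with means of 6.48 in mutant and 6.45 in wild type testes, while the Slit receptor gene *robo1* had 5.83 and 5.86. Of 9 measured partners of Crk, 7 had a wild type mean above 6. The engulfment receptor gene *drpr* had means of 8.92 in mutant and 8.61 in wild type testes (0.32, limma adjusted p = 0.410). The receptor tyrosine kinase gene *Pvr* had a value of -0.01. The adaptor gene *Ced-6* had a value of 0.43 (limma adjusted p = 0.631), and *drk*, which encodes an adaptor of Ras signalling, one of 0.29 (limma adjusted p = 0.532). *Ced-12*, which acts with Crk on Rac, had a value of -0.0097. Of 8 genes of calcium and calmodulin signalling, the calcineurin subunit gene *CanB2* and the calcineurin regulator gene *sra* had values of 0.10 and 0.19 (limma adjusted p = 0.722 and 0.613). *CanA1*, which encodes a catalytic subunit, was near background, with a value of -0.32 (limma adjusted p = 0.121). Of 13 glutamate receptors and partners 12 were near background, and *Galphao*, a G protein subunit gene, was the other, with means of 7.60 in mutant and 7.81 in wild type testes. *GluRIIA*, a receptor subunit gene of the neuromuscular junction, had means of 5.34 and 5.31 in mutant and wild type.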

How the data were processed

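Total RNA of 6 testis samples was hybridised to Affymetrix *Drosophila* version 2 arrays. The deposited values are log2 RMA levels, computed by the authors in R with Bioconductor (version unstated); RMA corrects background, equalises the distributions of the arrays and summarises each probe set, which removes a shift shared by most genes and can understate changes of weak genes. Of 18952 probe sets, 13646 named a single gene, and 13543 of these matched the Release 6 gene table, used for names, chromosomes and gene order. No coordinates are printed, because the sources name no build for the probes. Probe sets were averaged per gene. No expression minimum was applied, and the constant that the methods add to mutant arrays was set over all genes. Minima of 6 were alternatives. The test was limma (version 3.58.1 in R 4.3.3; lmFit and eBayes, Benjamini-Hochberg adjustment over all genes, threshold 0.05), tested on simulated data beforehand; figures used Python 3.11.15 and matplotlib 3.10.9. The number of arrays limits the precision.

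The genes, lists and rules were chosen with earlier results of these data known. All 8 measured genes are named; of each pathway list, genes past the threshold and the 2 with the highest wild type level were to be named, and those named beyond this (*unc-5*, *Ced-6*, *Ced-12*, *drk*, *CanA1*, *babo*, *Smox*, *daw* and *GluRIIB*) were chosen after their values were seen. After each genotype's mean was subtracted, same-numbered arrays correlated at 0.29, 0.86 and 0.59 across genes, so a fit with the replicate number as a block is given beside the results it changes. The p-values are otherwise from the fit without the block. The pairing comes from the data, and for mutant replicate 1 the correlation was higher with wild type replicate 3 (0.48).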

Additional observations from a re-analysis of the deposited data

How the results depend on the processing

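The direction of *Crk*, *PlexB* and *mGluR* was the same in every setting that gave the gene a single value. With each probe set tested on its own, those of *PlexB* differed in direction, with changes of -0.25, 0.11, -0.15 and 0.03. Blocking on the replicate number gave 716 changed genes (380 lower and 336 higher) in place of 384 (188 and 196). It gave 6 other chromosome 4 genes in place of 2 and 7 cell type markers in place of 6. The block changed no call among the 8 genes. No gene of the 8 was called without the constant or without replicate 2 of both genotypes (0 of 8), where *Crk* had adjusted p values of 0.060 and 0.091. The median of the 8 genes was -0.091 and -0.11 with a minimum of 6 on the wild type mean and on all arrays, which leave 5 genes (*PlexB* by its brightest probe set, at -0.20 and -0.22), and that of the other chromosome 4 genes -0.25 and -0.26, with 1 of them called under the second. Without the constant the median of the other chromosome 4 genes was -0.15. Without replicate 2 of both genotypes 5 other chromosome 4 genes and 3 cell type markers were called, *mav* was at -0.12, *Actbeta* at 0.029 and *myo* at 0.055. With the brightest probe set of each gene *Actbeta* was at 2.5e-06. It has 1 probe set, so for it only the constants of the mutant arrays differed in that setting. Leaving out 1 array gave 149 to 384 genes called, fewest without wild type replicate 1, 0 of the 8 genes each time, 2 to 5 other chromosome 4 genes, 1 to 4 cell type markers, medians of -0.068 to 0.028 for the 8 genes and -0.14 to -0.079 for the other chromosome 4 genes. Changes ran from -0.28 to 0.024 for *Ephrin*, -0.19 to 0.090 for *Eph*, -0.057 to 0.21 for *mav*, -0.022 to 0.033 for *Actbeta* and -0.17 to 0.12 for *myo*, none called. The cause of these shifts was not tested. Signals near background limit what can be read for *PlexB*, *Actbeta*, *myo* and *mGluR*.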
